A study of Mus musculus with 6 samples.

Results

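Complex I of the mitochondrial respiratory chain was followed through the 41 genes whose array name starts with Nduf, in epididymal white adipose tissue of patDp/+ and wild type mice. A probe entered when the scanner software called it well above background on 3 or more of the 6 arrays, and the brightest such probe stood for its gene. All 41 genes had one, out of 19009 genes tested in all. They comprise 7 core subunits, 29 accessory subunits, 4 assembly factors with an Ndufaf symbol, and Ndufa4, which kept its name although its protein is now assigned to complex IV. Fat of 3 patDp/+ mice, which carry on the chromosome 7 inherited from the father a duplication of the stretch that matches human 15q11-13, was set against that of 3 wild type mice. All 6 animals were males of 9 to 10 weeks on a C57BL/6 background, with 1 single-colour Agilent array per animal, numbered 1 to 3 in each group by replicate. The study asked which transcripts differ in the fat of these mice as young adults.

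Complex I takes electrons from NADH and passes them to ubiquinone while it pumps protons across the inner mitochondrial membrane. Its core subunits, inherited from bacterial ancestors, hold the flavin, the iron-sulfur clusters and the ubiquinone site in a peripheral arm, and the proton channels in a membrane arm. The channel subunits are encoded by mitochondrial DNA, whereas the core subunits of the peripheral arm, the accessory subunits around the core, and the assembly factors that join the modules and then leave are nuclear. White fat has fewer mitochondria than brown fat, and its adipocytes use them to supply ATP and carbon for the making of lipid.

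What each spot measured is shown here by 3 of the 60-base probes. They cover more than 60 bases of the mm9 genome, have a reading frame without a stop inside the probe, and belong to members described in full. The probes of Ndufv2 and Ndufaf3 met the same conditions and are not shown. The Ndufv1 probe lies at chr19:4007616-4007779, the Ndufs8 probe at chr19:3911200-3911568 and the Ndufaf1 probe at chr2:119481504-119482138, all on the minus strand. Such a longer stretch was given for 11 of the 40 member probes whose sequence was read. The letters run from 5′ to 3′ as the array file gives them.
Ndufv1: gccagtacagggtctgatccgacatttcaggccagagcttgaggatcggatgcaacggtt
Ndufs8: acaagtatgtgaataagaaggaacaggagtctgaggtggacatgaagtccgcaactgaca
Ndufaf1: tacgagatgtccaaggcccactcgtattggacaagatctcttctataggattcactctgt

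A feature that the choice of members did not use was the sequence around their transcription starts. Promoters from RefSeq (GRCm38.p6, 250 bases before and 50 after a start) were found for 37 members, 39 promoters in all, and searched on both strands for the letters of 4 factors linked to respiratory chain genes. AAGATGGC, the letters of YY1, stood in 7 of the 39 promoters (17.9%), against 2.75% of all 32851 promoters. In all 7 it lay on the gene's own strand, 22 to 38 bases after the start. A match on that strand anywhere after the start was found in 0.865% of all promoters, against the same 17.9% of member promoters. This condition was taken from the member matches themselves, so their share could not fall. The wider contrast is therefore no separate support. AAGATGGC also holds ATG, the letters of a start codon. Whether translation starts at these matches, which would bear on their strand and place, was not analysed. The 7 windows of 30 bases below show this shared placement, with the motif in capitals. The promoters are at chr10:80249199-80249498 for Ndufs7, chr7:3617123-3617422 for Ndufa3, chr6:126849095-126849394 for Ndufa9 and chr19:44555393-44555692 for Ndufb8. Those of Ndufc1, Ndufs4 and Ndufs6 are at chr3:51408906-51409205, chr13:114388045-114388344 and chr13:73328433-73328732. Ndufs7 and Ndufa3 are on the plus strand and the other 5 on the minus strand.
Ndufs7: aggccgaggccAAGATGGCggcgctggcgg
Ndufa3: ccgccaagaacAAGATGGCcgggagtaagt
Ndufa9: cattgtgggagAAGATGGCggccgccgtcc
Ndufb8: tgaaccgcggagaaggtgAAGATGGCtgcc
Ndufc1: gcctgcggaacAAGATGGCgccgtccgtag
Ndufs4: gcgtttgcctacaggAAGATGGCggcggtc
Ndufs6: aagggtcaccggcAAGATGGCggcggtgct

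The letters of NRF1, GCGCATGC, stood in 4 member promoters (Ndufa11, Ndufa6, Ndufa8 and Ndufaf4; 10.3%, against 2.71% of all promoters). Those of GABPA, CCGGAAGT, stood in 1 (Ndufs3; 2.56%, against 3.89%), and those of the estrogen-related receptors, TCAAGGTCA, in 0 (against 0.423%). No promoter of a member held the letters of more than 1 of these factors, so that 12 of the 39 held any of them (30.8%, against 9.25%). The log2 difference between patDp/+ and wild type fat had a median of -0.09 over the 7 members with the YY1 letters and of -0.07 over the 30 members searched without them. These matches describe letters, and binding was not measured.

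Of 13 listed genes of the duplicated interval, 9 were measured. Snrpn, Ndn, Mkrn3, Snurf, Ube3a, Atp10a and Herc2 had a higher mean in patDp/+ fat, with log2 differences of 0.49 to 1.18 and unadjusted p values of 0.0106 or less that did not pass over all genes tested, while Gabra5 and Gabrg3 had differences of -0.60 and -0.21 (unadjusted p = 0.505 and 0.659 in limma's fit). Arrays correlated across genes at 0.988 or more, and the negative controls had a mean net signal of 36.7 on patDp/+ array 1 and 29.0 to 31.6 on the others. For the complex I genes patDp/+ arrays 2 and 3 stood apart from each other, so the counts, the class medians and the single genes that moved most are also given without each of them. Arrays 1, 2 and 3 of each group shared slides 1, 2 and 3. Of the members, 3 are on chromosome 7 (Ndufc2, Ndufab1 and Ndufa3), and 0 of their probes lie in the stretch from the Herc2 to the Mkrn3 probe, chr7:63485047-69562792 on mm9.

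No complex I transcript passed the test between patDp/+ and wild type fat, and most had a slightly lower mean in patDp/+ fat. Of the 41 members, 36 (87.8%) had a lower mean in patDp/+ than in wild type fat and 5 a higher one, against 56.4% of all genes tested with a lower mean. Their log2 differences had a median of -0.08, a signal 5.54% lower, and a range of -0.18 to 0.05. The median of all genes was -0.02. Counting from limma's fit over all genes with Benjamini-Hochberg adjustment, 0 members had an adjusted p under 0.05, as did 0% of all genes. At an unadjusted p under 0.05 there were also 0 members, against 5.78% of all genes. With normexp background correction in place of the scanner's, there were 8 such members, against 4.3% of all genes, and the median of the members was -0.20, against 0.07 over all genes. The 95% intervals of all 41 members included 0 and ran at their widest from -0.50 to 0.33, so that patDp/+ signals between 70.6% and 126% of wild type were within the error of at least some member.

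The count of lower members rested on patDp/+ array 2. Without it, 27 of 41 members were lower, against 53.6% of all genes, and their median was -0.03. Without patDp/+ array 3, all 41 were lower, against 56.3% of all genes, with a median of -0.15. In that setting 2 members had an unadjusted p under 0.05, against 9.46% of all genes. These 41 counts are not independent, since every member was read on the same 6 arrays. Every patDp/+ array lay below every wild type array for 2 of the 40 members measured on all arrays (Ndufs7 and Ndufa5; 5%), a share below the 6.79% of all genes tested.

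**Figure D1:**
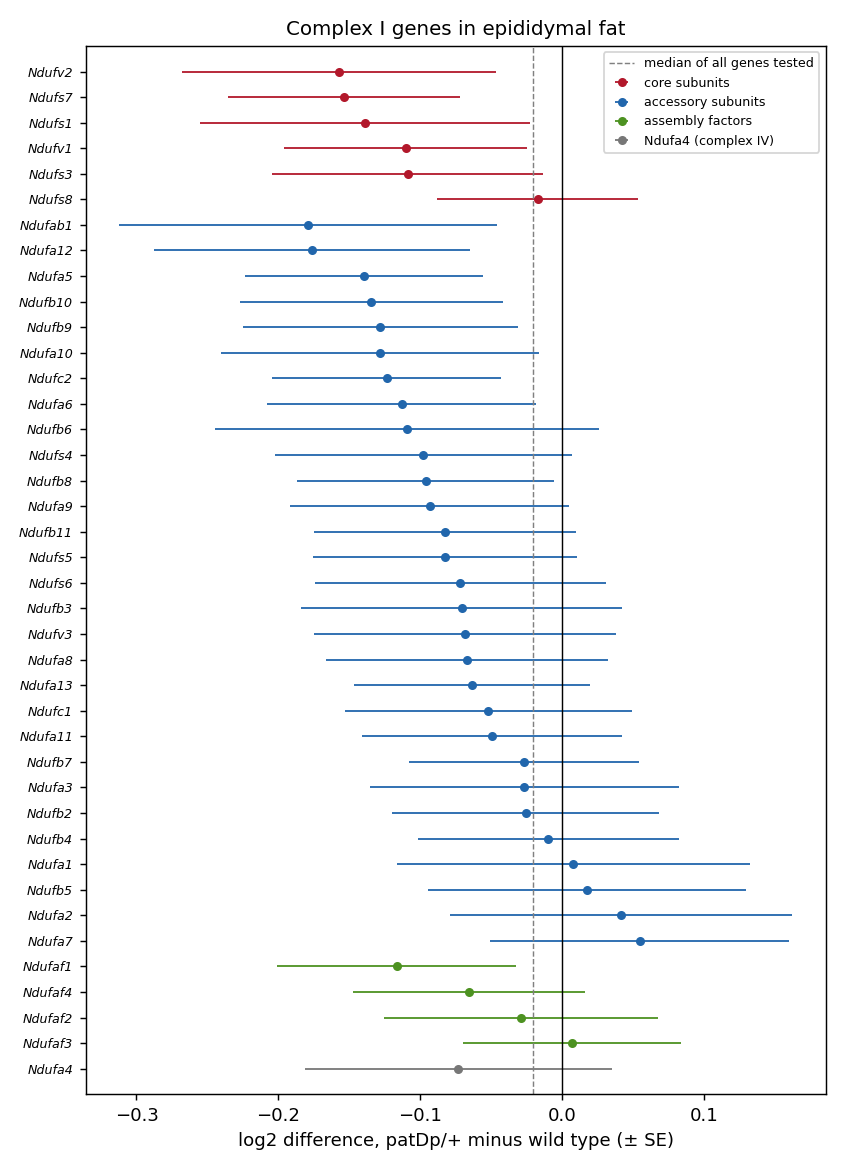
Log2 difference between patDp/+ and wild type fat (horizontal axis, patDp/+ minus wild type) for 40 of the 41 Nduf genes, with points for the estimates of limma and bars for their standard errors, n = 3 arrays per group. Points run from -0.18 (Ndufab1, Ndufa12) to 0.05 (Ndufa7), with each core subunit plotted lying below 0 and the median of all genes, -0.02, as a dashed line.

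The 7 core subunits measured were all of the peripheral arm, and all 7 were lower in patDp/+ fat, with a median log2 difference of -0.14. Ndufv1 binds the flavin that accepts the electrons of NADH. Its log2 values, relative to the 75th percentile of the array, were 5.17, 5.12 and 5.34 in patDp/+ fat, against 5.27, 5.32 and 5.35 in wild type fat. The values of patDp/+ arrays 1 and 2 lay below all wild type values and that of patDp/+ array 3 among them. The difference was -0.11 ± 0.09 (SE, adjusted p = 0.912). Ndufv2, the iron-sulfur partner of Ndufv1 in the same module, had log2 values of 2.97, 2.90 and 3.15 in patDp/+ fat, against 3.002, 3.25 and 3.25 in wild type fat. Array 1 of wild type was lower than patDp/+ array 3, so the groups overlapped, and the difference was -0.16 ± 0.11 (SE, adjusted p = 0.903). Ndufs1, which carries iron-sulfur clusters along the same path, had log2 values of 4.67, 4.51 and 4.85 in patDp/+ fat, against 4.68, 4.83 and 4.92 in wild type fat. Here the patDp/+ values spanned most of the range of the gene, and the difference was -0.14 ± 0.12 (SE, adjusted p = 0.918).

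Nearer to the ubiquinone site, Ndufs7 carries the last cluster of the electron path. It had log2 values of 5.26, 5.12 and 5.33 in patDp/+ fat, against 5.42, 5.38 and 5.38 in wild type fat. Its groups did not overlap, and the SD was 0.11 over patDp/+ arrays and 0.03 over wild type arrays. The difference of -0.15 ± 0.08 (SE) had the smallest unadjusted p of all members, 0.108, and an adjusted p of 0.87 in limma's fit.

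Ndufs3, a subunit next to Ndufs7, had log2 values of 5.06, 4.99 and 5.27 in patDp/+ fat, against 5.16, 5.24 and 5.24 in wild type fat. The highest and the lowest of the 6 values were both from patDp/+ animals, and the difference was -0.11 ± 0.10 (SE, adjusted p = 0.918). Ndufs8, an iron-sulfur subunit between the flavin and the ubiquinone site, stood closest to 0 among the core subunits, with log2 values of 2.32, 2.25 and 2.34 in patDp/+ fat, against 2.30, 2.30 and 2.37 in wild type fat. The groups overlapped, and the difference was -0.02 ± 0.07 (SE, adjusted p = 0.986, 95% interval -0.19 to 0.15). Its sign turned without patDp/+ array 2 and without wild type array 3 (0.01 each). Of the core subunits encoded by mitochondrial DNA only ND4, a proton channel subunit, was measured. It had log2 values of 6.92, 6.75 and 7.03 in patDp/+ fat, against 7.06, 6.99 and 6.98 in wild type fat. This is again lowest on patDp/+ array 2, with a difference of -0.11 ± 0.10 (SE, adjusted p = 0.918).

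Without patDp/+ array 2, the differences of the core subunits with values given here ran from -0.10 to 0.01, with Ndufs1 at -0.06, Ndufs3 at -0.05 and Ndufv1 at -0.07. Without patDp/+ array 3 they ran from -0.23 to -0.04.

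Of the 29 accessory subunits 25 were lower and 4 higher in patDp/+ fat, with a median log2 difference of -0.07 and a range of -0.18 to 0.05. Ndufa5, of the peripheral arm, was the other member whose groups did not overlap. Its log2 values were 5.95, 5.83 and 6.06 in patDp/+ fat, against 6.09, 6.08 and 6.09 in wild type fat. The wild type arrays were nearly equal and patDp/+ array 3 lay just below them, and the difference was -0.14 ± 0.08 (SE, adjusted p = 0.889). Ndufa12, of the same arm, had log2 values of 5.43, 5.38 and 5.71 in patDp/+ fat, against 5.59, 5.75 and 5.72 in wild type fat. Arrays 1 and 2 of patDp/+ were low and array 3 was at the wild type level, with a difference of -0.18 ± 0.11 (SE, adjusted p = 0.897). Its 3 kept probes gave differences of -0.18 to -0.15.

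Ndufab1, the mitochondrial acyl carrier protein, sits in both arms of the complex and also serves fatty acid synthesis in mitochondria. It had log2 values of 4.77, 4.61 and 5.05 in patDp/+ fat, against 4.86, 5.06 and 5.05 in wild type fat. It had the widest spread between patDp/+ animals of any member (SD 0.23), from the lowest to nearly the highest of the 6 values. The difference was -0.18 ± 0.13 (SE, adjusted p = 0.91), the largest among accessory subunits. In the membrane arm, Ndufc2 had log2 values of 5.65, 5.56 and 5.76 in patDp/+ fat, against 5.79, 5.75 and 5.81 in wild type fat. Its patDp/+ array 3 lay just above the lowest wild type array, and the difference was -0.12 ± 0.08 (SE, adjusted p = 0.899). Ndufb10, also of the membrane arm, had log2 values of 5.82, 5.79 and 6.01 in patDp/+ fat, against 5.92, 6.03 and 6.08 in wild type fat. It overlapped likewise through patDp/+ array 3, with a difference of -0.13 ± 0.09 (SE, adjusted p = 0.903).

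Without patDp/+ array 2, these 5 accessory differences were smaller, from -0.11 for Ndufa12 to -0.08 for Ndufc2, Ndufab1 and Ndufa5. Without patDp/+ array 3 they ran from -0.30 for Ndufab1 to -0.18 for Ndufc2.

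The other accessory subunits lay between -0.13 and 0.05. Next in size were Ndufb9 and Ndufa10 of the membrane arm (-0.13 each), Ndufa6 of the peripheral arm (-0.11) and Ndufb6 (-0.11). Ndufs4 and Ndufs6, which sit on the peripheral arm and whose loss in humans causes complex I deficiency, had differences of -0.10 and -0.07. The 4 accessory subunits with a higher mean were Ndufa7 (0.05 ± 0.11, SE), Ndufa2 (0.04 ± 0.12), Ndufb5 (0.02 ± 0.11) and Ndufa1 (0.01 ± 0.12), none of them beyond the spread between animals. Ndufa3 was read on 5 arrays, because its spot on patDp/+ array 1 was marked an outlier, and its difference was -0.03 ± 0.11 (SE). For 13 members more than 1 probe was kept. All probes of a gene had the same sign for 9 of them, and signs were mixed for Ndufa1, Ndufa7, Ndufaf4 and Ndufs5. Sizes could differ where signs did not. The probes of Ndufv3 gave -0.28 to -0.07 and those of Ndufb8 -0.24 to -0.10, with the brightest probe nearest 0 in each. On their dimmer probes every patDp/+ array lay below every wild type array. For Ndufab1 the dimmer probe was instead nearer 0 (-0.12, against -0.18). Dimmer probes did not enter the counts.

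**Figure D2:**
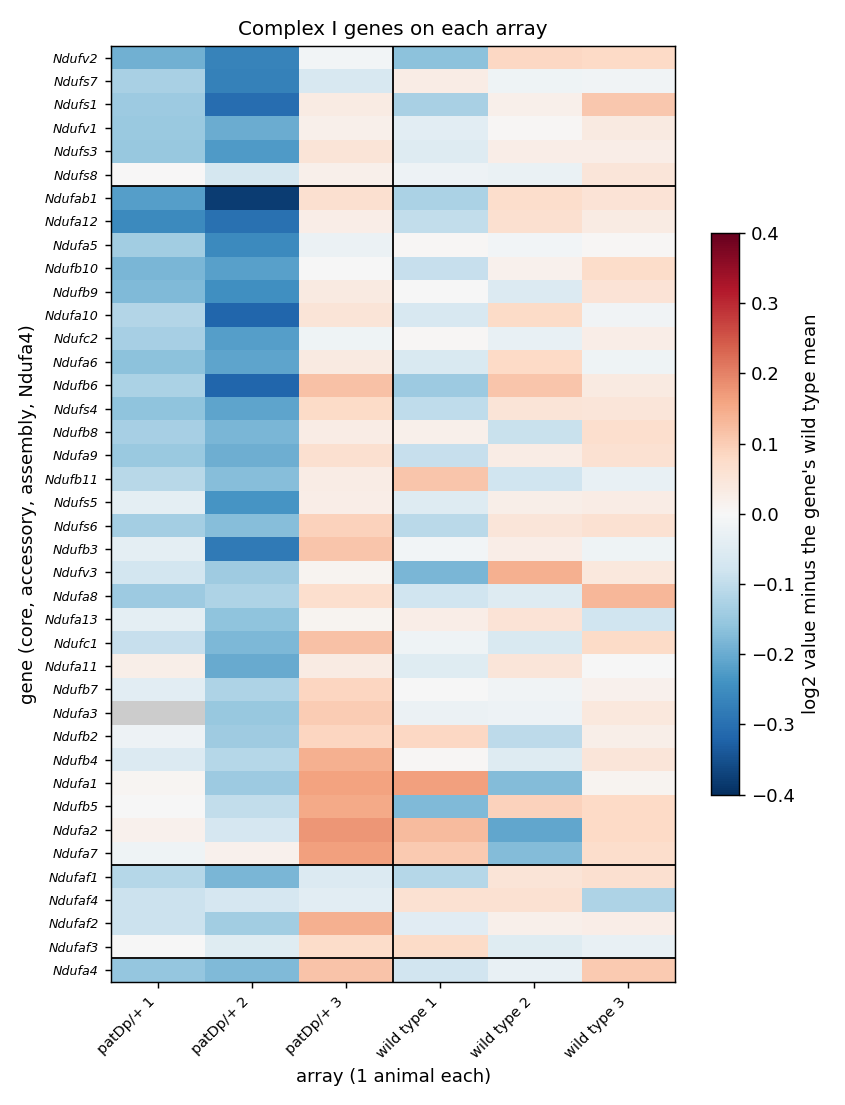
Each cell shows the log2 value of 1 of 40 Nduf genes on 1 array minus that gene's wild type mean, blue for lower and red for higher, with patDp/+ arrays on the left and wild type arrays on the right. Black lines part core subunits, accessory subunits, assembly factors and Ndufa4, and the grey cell is the Ndufa3 spot left out. The column of patDp/+ array 2 is blue for nearly all genes, whereas that of patDp/+ array 3 is mostly pale or red.

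Of the 4 assembly factors named Ndufaf, 3 were lower and 1 higher, with a median log2 difference of -0.05. With Ndufaf5, Ndufaf6 and Ndufaf7, which carry clone names on the array, the median was -0.10, so that the order of this class and the accessory subunits (-0.07) depended on the members. In the authors' deposited table the 4 had a median of -0.07 and the accessory subunits -0.06. Ndufaf1, which helps to build the membrane arm, had log2 values of 1.56, 1.496 and 1.62 in patDp/+ fat, against 1.56, 1.73 and 1.74 in wild type fat. Wild type array 1 shared the level of the patDp/+ arrays and the other wild type arrays were above them, with a difference of -0.12 ± 0.08 (SE, adjusted p = 0.91). Ndufaf2 occupies the place of Ndufa12 in the complex while it is being built. It had log2 values of 2.01, 1.95 and 2.23 in patDp/+ fat, against 2.05, 2.11 and 2.12 in wild type fat. Array 3 of patDp/+ was the highest and array 2 the lowest, and the difference was -0.03 ± 0.10 (SE, adjusted p = 0.981). It was 0.03 without patDp/+ array 2.

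Ndufaf3 and Ndufaf4 bind each other and an early form of the peripheral arm. Ndufaf4 had log2 values of 0.86, 0.87 and 0.90 in patDp/+ fat, against 1.00, 1.00 and 0.82 in wild type fat. The patDp/+ arrays were close together, inside the range of the wild type arrays, and the difference was -0.07 ± 0.08 (SE, adjusted p = 0.941). Ndufaf3 had log2 values of 1.57, 1.52 and 1.64 in patDp/+ fat, against 1.65, 1.52 and 1.54 in wild type fat. The groups spanned the same range, and the difference was 0.01 ± 0.08 (SE, adjusted p = 0.996). It turned to -0.03 without patDp/+ array 3 and to -0.02 and -0.01 without wild type array 2 or 3. A list of 11 measured complex I assembly factors without a current Nduf symbol had 8 lower and 3 higher in patDp/+ fat, with a median of -0.10. Of these, 0 had an unadjusted p under 0.05 in limma's fit, against 5.78% of all genes.

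Ndufa4, the subunit that passed to complex IV, had log2 values of 5.24, 5.22 and 5.51 in patDp/+ fat, against 5.32, 5.37 and 5.50 in wild type fat. Its patDp/+ arrays 1 and 2 were the lowest and patDp/+ array 3 the highest of the 6, and the difference was -0.07 ± 0.11 (SE, adjusted p = 0.95). It was -0.02 without patDp/+ array 2 and -0.17 without patDp/+ array 3.

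The classes were compared within each array, as means over genes relative to the wild type mean of each gene. Core subunits stood at -0.13, -0.23 and -0.01 on patDp/+ arrays 1, 2 and 3, against -0.07, 0.03 and 0.04 on wild type arrays 1, 2 and 3. The 28 accessory subunits read on all arrays stood at -0.10, -0.19 and 0.07 in patDp/+ fat, against -0.03, -0.01 and 0.03 in wild type fat. The assembly factors stood at -0.07, -0.11 and 0.03 in patDp/+ fat, against -0.01, 0.02 and -0.02 in wild type fat. The 3 classes thus shared the order of the patDp/+ animals, with array 2 lowest and array 3 highest. Leaving out patDp/+ array 2 moved the class medians to -0.07 (core), -0.02 (accessory) and -0.02 (assembly). Leaving out patDp/+ array 3 moved them to -0.20, -0.15 and -0.10 in the same order.

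Core subunits were lower than assembly factors by little, and unevenly. The core mean minus the assembly mean was -0.06, -0.12 and -0.04 on the patDp/+ arrays, against -0.07, 0.01 and 0.05 on the wild type arrays. The lowest wild type array thus lay inside the patDp/+ range. The core mean minus the accessory mean was -0.03, -0.04 and -0.08 on the patDp/+ arrays, against -0.04, 0.04 and 0.004 on the wild type arrays, again with 1 wild type array among the patDp/+ values. By position, the 16 members of the peripheral arm had a median difference of -0.11 and the 19 of the membrane arm one of -0.07. The mean of the peripheral arm minus that of the membrane arm was -0.05, -0.004 and -0.03 on the patDp/+ arrays, against -0.04, 0.03 and 0.01 on the wild type arrays, so the groups overlapped here too. No class or arm was thus separated from another beyond the spread between animals.

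**Figure D3:**
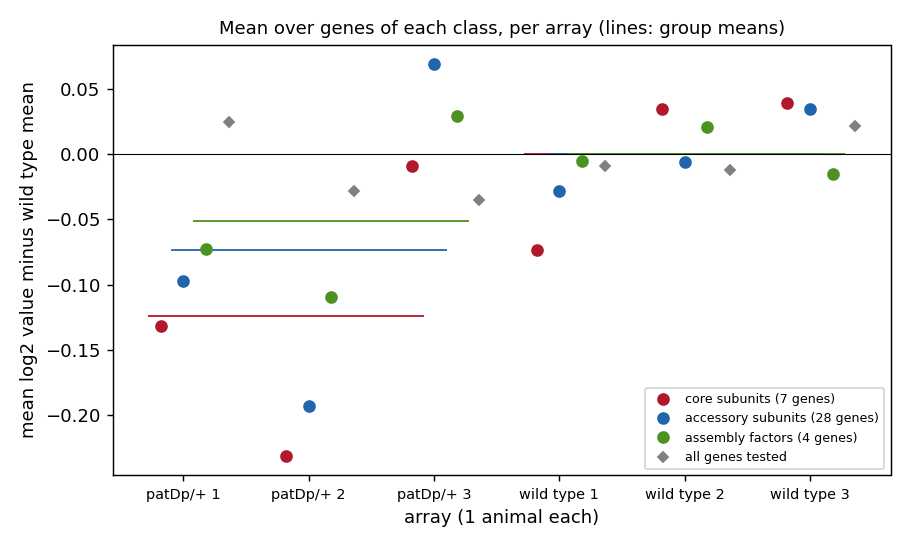
Mean log2 value over the genes of each class on each array, minus the wild type mean (vertical axis), with patDp/+ arrays left of wild type arrays. Coloured lines mark the means of both groups. Grey diamonds give the mean over all genes tested, between -0.03 and 0.02. All 3 classes are lowest on patDp/+ array 2, at -0.23 for core, -0.19 for accessory and -0.11 for assembly genes.

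The members shared an order of animals. Over the 40 members read on all arrays, the lowest of the 6 values came from patDp/+ array 2 for 32 (80.0%), all 7 core subunits included. That array held the lowest value of 20.4% of all genes and of 34.1% of the brightest 10% of genes, which 33 of the members belong to. patDp/+ array 3 held the lowest value of 0 members, against 19.3% of all genes and 10.8% of the brightest 10%. It held the highest of 15 members (37.5%), against 14.9% of all genes and 23.0% of the brightest 10%. Within slides, 34 of 40 members were lower in the patDp/+ animal on slide 1, 36 on slide 2 and 16 on slide 3. The mean difference over members was -0.07 on slide 1, -0.19 on slide 2 and 0.02 on slide 3. The mean on slide 3 thus had the opposite sign. The core subunits were lower on all 3 slides (-0.06, -0.27 and -0.05), with 6 of 7 lower on slide 3. Over all genes the mean differences were 0.03, -0.02 and -0.06, with 48.7%, 56.2% and 56.2% lower. On slide 3 the core mean was thus no lower than that of all genes. Over the brightest 10% of genes the means were -0.003, -0.06 and 0.02. The median SD within groups was 0.11 over the members, against 0.15 over all genes and 0.10 over the brightest 10%.

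**Figure D4:**
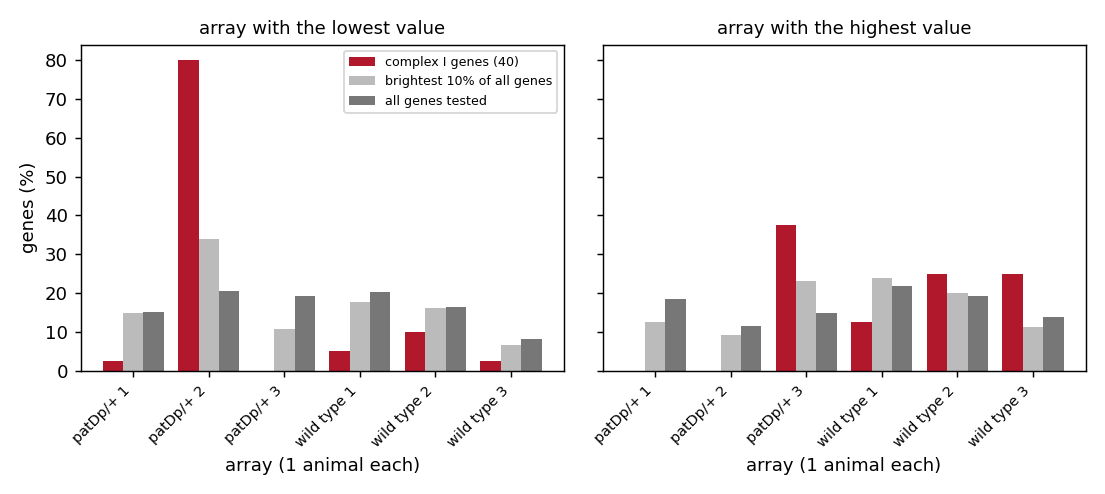
Percentage of genes whose lowest value (left) or highest value (right) of the 6 came from each array, for the 40 complex I genes read on all arrays (red), the brightest 10% of genes (light grey) and all genes tested (dark grey). The red bar of patDp/+ array 2 reaches 80.0% on the left, and that of patDp/+ array 3 37.5% on the right.

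Other respiratory chain genes had the same order of the 3 patDp/+ arrays, with array 2 lowest and array 3 highest. Complex II, which feeds electrons from succinate, was lower for 4 of 4 genes with a median log2 difference of -0.16. Complex III was lower for 8 of 9 (median -0.11), complex IV for 10 of 10 (median -0.11) and complex V, the ATP synthase, for 15 of 15 (median -0.10). Of these 38 genes of complexes II to V, 0 had an unadjusted p under 0.05 in limma's fit, against 5.78% of all genes. Their mean relative to wild type was -0.11, -0.24 and 0.03 on the patDp/+ arrays, against -0.04, -0.01 and 0.05 on the wild type arrays. The members of complex I, at -0.10, -0.19 and 0.05 in patDp/+ fat, against -0.04, 0.003 and 0.03 in wild type fat, lay close to them on every array. Sdha, the flavin subunit of complex II, had the smallest p of these lists (difference -0.20 ± 0.09, SE, adjusted p = 0.859).

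Regulators of mitochondrial gene expression did not share a direction, with 7 of 11 lower and a median of -0.02. Of the 11, 3 had an unadjusted p under 0.05 in limma's fit, against 5.78% of all genes. Ppargc1a, the coactivator that promotes mitochondrial biogenesis, had log2 values of -1.36, -1.41 and -1.91 in patDp/+ fat, against -0.73, -1.01 and -1.02 in wild type fat. All patDp/+ arrays lay below all wild type arrays, as held for 3 of the 11 regulators and for 6.79% of all genes. The reverse held for 0 regulators, against 832 of all 19009 genes. For Ppargc1a, array 3 of patDp/+, on which complex I genes were highest, was the lowest. The difference was -0.64 ± 0.17 (SE, unadjusted p = 0.00954, adjusted p = 0.849 in limma's fit). Its relative Ppargc1b had a difference of -0.51 ± 0.19 and the third family member, Pprc1, one of 0.43 ± 0.17 (SE, adjusted p = 0.856 for each), both with overlapping groups. Whether the level of Ppargc1a bears on the complex I genes was not tested.

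The tissue was fat by its markers, and its other cells differed between arrays. All 8 adipocyte markers were measured, with 6 lower, a median of -0.09 and means relative to wild type of -0.09, -0.14 and 0.02 on the patDp/+ arrays, against 0.09, -0.03 and -0.07 on the wild type arrays. The patDp/+ arrays thus had the same order as for complex I, while wild type array 1, the lowest of its group for complex I, was the highest for adipocyte markers. All 9 macrophage markers had a higher mean in patDp/+ fat, with a median of 0.31, and stood at 0.46, 0.34 and 0.01 on the patDp/+ arrays, against 0.09, -0.09 and 0.005 on the wild type arrays. Among patDp/+ animals, arrays 1 and 2, with the lower complex I means, were also those with the higher macrophage means. T cell markers were higher for 5 of 5 (median 0.53), but unevenly, from 0.07 for Cd3e, with overlapping groups, to 1.34 for Cd8a. B cell markers were lower for 5 of 5 (median -0.61) and endothelial markers lower for 5 of 5 (median -0.18). Of all genes tested, 56.4% were lower. None of these markers passed the adjusted threshold, and their part in the complex I values was not tested. In whole tissue, fewer cells of a type and less RNA per cell cannot be told apart. The 5 measured brown and beige fat markers stood at -0.05, -0.45 and 0.06 on the patDp/+ arrays, against -0.34, 0.50 and -0.16 on the wild type arrays. Both groups thus spread widely, with array 2 the lowest in patDp/+ and the highest in wild type fat. The 2 measured red cell markers stood at -0.27, -0.12 and 0.81 on the patDp/+ arrays, against 0.004, 0.36 and -0.36 on the wild type arrays, highest on patDp/+ array 3. Ucp1 and Elovl3, which mark brown and beige fat, and 4 of 6 epididymal markers did not reach the brightness filter. The 2 measured epididymal markers stood at -0.06, -0.27 and -0.73 on the patDp/+ arrays, against -0.14, 0.11 and 0.03 on the wild type arrays. The 3 measured skeletal muscle markers stood at 0.54, 0.35 and 0.32, against -0.08, -0.08 and 0.16. Of these 3, 2 were lower and 1 higher, by 1.29 (unadjusted p = 0.00285, adjusted p = 0.744 in limma's fit).

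**Figure D5:**
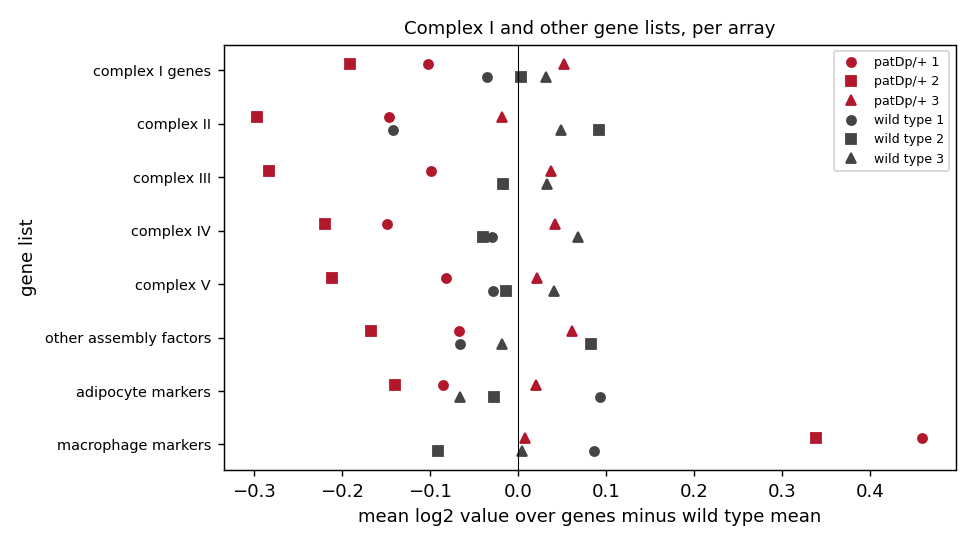
Mean log2 value over the genes of each list minus the wild type mean (horizontal axis), with red symbols for patDp/+ arrays above dark symbols for wild type arrays, and circles, squares and triangles for arrays 1, 2 and 3. For complex III the circle and square of wild type coincide at -0.02. patDp/+ array 2 is lowest in every list of respiratory chain genes, from -0.19 for complex I to -0.30 for complex II, and at 0.34 for macrophage markers.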

How the data were processed

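Each of the 6 arrays was deposited as a scanner file. Per the file headers, Feature Extraction 9.5.1.1 gave the processed signal as a background-subtracted intensity on a linear scale, not scaled between arrays. Agilent Feature Extraction 9.5 and limma 3.18.2 are listed, without roles, per the submitters' processing notes. A table of normalized log2 values that the authors deposited was used as an alternative only. Groups came from the sample titles. The source name of every sample says wild type, replicate 1, and was not used.

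Values are log2 of the processed signal minus the 75th percentile of the array. Outlier spots were left out and spots of a probe averaged. Of 41174 probes, 27975 were well above background on at least 3 arrays, and no member spot was saturated. Symbols were updated through RefSeq accessions (27050 probes matched), but membership followed the array's own name. Coordinates of probes are mm9 as deposited. Exon and untranslated region positions were not analysed here.

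The 19009 genes were fitted with limma 3.58.1 in R 4.3.3 (lmFit, eBayes, two-sided, Benjamini-Hochberg, threshold 0.05), tested on simulated data. The number of arrays limits the precision. SE and 95% intervals are limma's. Class means and lists were described with no test. Values of all arrays are given for core subunits, for the 4 accessory and assembly members with the smallest p and the largest difference, and for Ndufa4. For 1 gene chosen in this way, single values are not reported here, and counts and medians include it. ND4, Ppargc1a and the genes of other lists were named by p or by being the only one measured. Members, classes, lists, markers and motifs were chosen with earlier results of these data known. Replicate numbers coincide with slides read from the barcodes. Deviations of same-numbered arrays correlated at 0.10, -0.09 and -0.04 across genes.

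Alternatives were normexp background correction (offset 50), quantile normalization, the deposited table, other filters, the mean over probes, a replicate block, array weights, a trended robust variance, membership by current symbol, and leaving out each array.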

Additional observations from a re-analysis of the deposited data

How the results depend on the processing

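No member and no other gene had an adjusted p under 0.05 in any setting run. The settings were normexp background correction, quantile normalization, the authors' deposited table, 2 other filters on dim probes, the mean over probes, the replicate block, array weights, a trended robust variance, and leaving out each array. With normexp, which raised the median of all genes to 0.07, all 41 members were lower, and the median log2 differences were -0.25 for core, -0.20 for accessory and -0.12 for assembly genes. There, 8 members had an unadjusted p under 0.05, against 4.3% of all genes, of which 40.5% were lower (smallest adjusted p = 0.589 in limma's fit). The cause was not tested. Leaving out 1 array at a time, the median ranged from -0.20 to -0.07 for core, from -0.15 to -0.02 for accessory and from -0.10 to -0.02 for assembly genes. Of the single genes described, Ndufaf3 turned to a log2 difference of -0.0591 with normexp. Leaving out 1 array at a time, it ranged from -0.0258 (without patDp/+ array 3) to 0.0459, Ndufaf2 from -0.114 to 0.0270 (without patDp/+ array 2), and Ndufs8 from -0.0358 to 0.0100 (without patDp/+ array 2). With array weights the count of lower members was 39 (median -0.14) and with the mean over probes 36, with 1 member in each at an unadjusted p under 0.05, against 8.43% and 5.52% of all genes. With the replicate block, which is also the slide, 0 members passed (smallest adjusted p = 0.909 in limma's fit) and no call changed. The class medians of -0.14, -0.07 and -0.05 could not show an effect of the slide. Each block held 1 array of each group, which leaves the difference of a gene read on all arrays unchanged. With 3 arrays per group, the 95% intervals of all 41 members held 0.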

Other observations

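On the array 3 further assembly factors carry clone names and are Ndufaf5, Ndufaf6 and Ndufaf7 by their current symbols. Ndufaf6 had log2 values of 0.10, 0.13 and 0.33 in patDp/+ fat, against 0.19, 0.40 and 0.43 in wild type fat. Array 3 of patDp/+ lay among the wild type arrays, and the difference was -0.16 ± 0.11 (SE, adjusted p = 0.899 in limma's fit). Ndufaf5 and Ndufaf7 had differences of -0.10 ± 0.13 and -0.10 ± 0.08 (SE).

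Ndufs5 had a dim second probe, designed on another transcript record, which differed from the bright one. It had log2 values of -5.49, -3.93 and -3.90 in patDp/+ fat, against -5.51, -4.96 and -5.10 in wild type fat. Arrays 2 and 3 of patDp/+ stood above the other 4 arrays, a difference of 0.75, whereas the bright probe, described above by its sign only, had a difference of -0.08. This probe was chosen after its values were seen, and no test was made of it.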
